A study of Mus musculus with 26 samples.

Results

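Open chromatin mapped with a transposase that carries methylated adaptors was compared with open chromatin mapped with the Nextera transposase, in mouse embryonic stem cells (mESC) and in libraries that were not bisulfite converted. The members were genomic regions, found by reducing each of 4 peak lists to its distinct regions and merging regions of different libraries that shared at least 1 bp. Of 44284 merged regions, 17343 were in all 4 libraries, 2498 were in both libraries with methylated adaptors and in neither Nextera library, and 985 were in both Nextera libraries and in neither library with methylated adaptors. These 20826 regions are described here, out of 101911 regions over the 14 single-sample lists of mESC outside the KLF4 experiments of the series.

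M-ATAC-NC denotes the 2 samples tagmented with methylated adaptors and left unconverted, and ATAC the 2 samples tagmented with Nextera adaptors. All 4 came from the KH2 mESC line, grown on irradiated feeder cells that were removed by pre-plating, with 50000 cells per reaction and no further genotype or treatment in the labels. Each M-ATAC-NC sample was an aliquot of gap-repaired M-ATAC DNA set aside ahead of conversion, so these samples can share a tagmentation reaction with the converted M-ATAC libraries, and the sources do not say with which replicates. Nothing states that replicates came from separate cultures, and p-values then measure only the spread between these samples, which may be technical. The kinds of library also differed in the enzyme preparation (EZ-Tn5 or Nextera) and in oligonucleotide replacement and gap repair. They may differ in sequencing depth too, which the peak lists do not record. These differences cannot be told apart from the adaptors.

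ATAC-seq uses the Tn5 transposase, which cuts accessible DNA and ligates its adaptors to the ends in the same step, so that reads pile up over promoters, enhancers and insulators. In M-ATAC the adaptors carry 5-methylcytosine, which bisulfite does not convert, and the adaptor ends therefore stay readable while unmethylated cytosines of the genomic insert are converted. An unconverted library made with the same transposome shows where that transposome inserts, without the loss and the base changes of conversion. The oligonucleotides that set M-ATAC-NC apart from ATAC are shown because they are the design difference of the comparison. Capitals mark the methylated cytosines, of which the top adaptor has 6 in 33 bases and the replacement oligonucleotide 12 in 34, while none is marked in the bottom adaptor of 14 bases, shown without its terminal dideoxycytidine.
Top adaptor Tn5mC-Apt1: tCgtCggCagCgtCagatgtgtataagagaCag
Bottom adaptor Tn5mC1.1-A1block: ctgtctcttataca
Replacement oligonucleotide Tn5mC-ReplO1: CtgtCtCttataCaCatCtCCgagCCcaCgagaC

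The genomic windows that follow show the range of base composition over which the libraries differed. Each is 201 bp of GRCm38 (the coordinates of mm10), plus strand, centred on a region's strongest summit, and CpG dinucleotides are in capitals. The promoter window of Adamts20, at chr15:94404319-94404519, was 82.6% GC with 32 CpGs and lay in a shared region that was lower in M-ATAC-NC. The window at chr6:63151342-63151542, 35.8% GC with no CpG and nearest to the start of the pseudogene Nasp-ps1, was lower in M-ATAC-NC too. The promoter window of Gclm, at chr3:122245311-122245511, was 75.1% GC with 29 CpGs and was called in ATAC only. The window at chr5:139686984-139687184, intergenic and nearest to Gm42424, was 60.2% GC with 4 CpGs and was called in M-ATAC-NC only.
Adamts20: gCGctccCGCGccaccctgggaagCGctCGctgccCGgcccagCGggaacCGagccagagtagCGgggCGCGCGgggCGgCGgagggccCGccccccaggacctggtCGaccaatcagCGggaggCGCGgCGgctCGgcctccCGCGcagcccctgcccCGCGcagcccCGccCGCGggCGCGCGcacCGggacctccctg
Nasp-ps1: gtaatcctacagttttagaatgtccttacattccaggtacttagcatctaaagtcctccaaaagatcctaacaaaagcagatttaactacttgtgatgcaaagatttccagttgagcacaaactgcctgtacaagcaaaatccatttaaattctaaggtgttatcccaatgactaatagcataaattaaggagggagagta
Gclm: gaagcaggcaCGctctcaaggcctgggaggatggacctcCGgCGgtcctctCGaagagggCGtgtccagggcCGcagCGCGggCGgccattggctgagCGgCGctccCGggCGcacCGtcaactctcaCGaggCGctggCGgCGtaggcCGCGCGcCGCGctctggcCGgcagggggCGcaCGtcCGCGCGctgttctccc
Gm42424: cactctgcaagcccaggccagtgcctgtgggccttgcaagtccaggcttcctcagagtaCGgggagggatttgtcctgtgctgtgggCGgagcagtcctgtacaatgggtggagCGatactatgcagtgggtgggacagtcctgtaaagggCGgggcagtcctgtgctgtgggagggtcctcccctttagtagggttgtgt

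The M-ATAC-NC lists held 29293 and 32999 distinct regions and the ATAC lists 24113 and 30666, so the groups overlapped in number. M-ATAC-NC regions were wider, with medians of 429 and 440 bp against 374 and 385 bp, and covered 14109783 and 16299228 bp against 10352445 and 13648326 bp. ATAC regions were split into more summits, with means of 1.19 and 1.22 summits per region against 1.09 and 1.11. Each of these last 3 measures separated the kinds with no overlap, and each reached the exact permutation p of 0.333, below which this test of 2 against 2 samples cannot go (two-sided, adjusted p = 0.424 over 14 library measures). Depth is not recorded in the lists, but the pileup of reads at each summit and the local background could be recovered from the fold enrichment and the p-value, as a whole number of reads within a tolerance of 0.001 in -log10 p for 99.99% of summits in every library. The lowest background, which grows with the number of reads, was 0.877 and 1.02 reads in M-ATAC-NC and 1.28 and 1.42 reads in ATAC. The weakest summit that was called had 6 and 7 reads in M-ATAC-NC and 8 in both ATAC libraries. In the 17343 shared regions the median summit nevertheless had 21 and 26 reads in M-ATAC-NC against 18 and 22 in ATAC, and these values overlapped between the kinds.

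Libraries of the same kind overlapped little more than libraries of different kinds. The Jaccard index, the base pairs covered by both libraries over those covered by either, was 0.542 between the M-ATAC-NC replicates and 0.503 between the ATAC replicates. Across kinds it ran from 0.450 to 0.503, the highest being between M-ATAC-NC replicate 2 and ATAC replicate 2. The same-kind mean was higher by 0.0441, against an SD of 0.0331 over the 6 pairs. As a description over 17343 shared regions, log2 fold enrichment correlated with r = 0.725 between the M-ATAC-NC replicates, r = 0.691 between the ATAC replicates and r = 0.615 to 0.645 across kinds. The points share regions that had to pass in all 4 lists. The strongest summits of a shared region lay a median of 35 bp apart in the M-ATAC-NC replicates, 48 bp apart in the ATAC replicates and 41 to 48 bp apart across kinds.

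**Figure D1:**
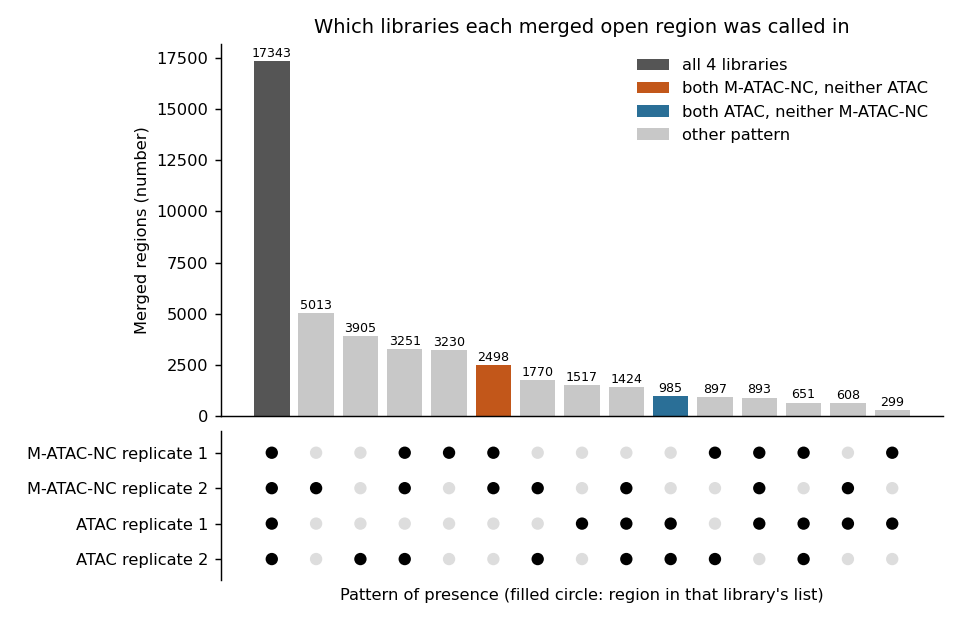
Number of merged regions with each pattern of presence in the 4 peak lists (bars, y axis in regions), with the pattern marked below by filled circles. The tallest bar is the 17343 regions in all 4 libraries, and the 2498 regions of both M-ATAC-NC libraries alone exceed the 985 of both ATAC libraries alone.

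Presence in both libraries of a single kind was the minor outcome, as the plot of presence patterns shows. Of the 44284 merged regions 30.9% were in 1 library, 39.2% in all 4, and 14.04% in 3. Both M-ATAC-NC libraries alone held 5.64% and both ATAC libraries alone 2.22%, while 8.07% (3574 regions) were in 1 library of each kind. Single pairs of different kinds held from 299 regions to 1770, the latter in replicate 2 of each kind, against 985 in the ATAC-only class. The commonest pattern over 3 libraries, 3251 regions, lacked ATAC replicate 1, the shortest list. Members of the exclusive classes were weak. In M-ATAC-NC-only regions the median fold enrichment over background was 4.998 in replicate 1 and 5.32 in replicate 2, against 7.49 and 8.22 in the shared regions. In ATAC-only regions it was 4.82 and 4.96, against 6.10 and 6.59 in the shared regions. With -log10 q of at least 5 in both libraries of the kind, and no listed region in the other kind, 834 M-ATAC-NC-only and 282 ATAC-only regions remained, and at 10 or more 90 and 28 remained. When every list was shortened to its 24113 most significant regions, the classes came to 1521 and 1347 regions.

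Base composition differed between the classes. GC content was measured over the 201 bp around the strongest summit, which the rule did not use. Windows of at least 75% GC made up 8.43% of ATAC-only regions (83 of 985), 1.32% of M-ATAC-NC-only regions (33 of 2498) and 4.53% of shared regions. At 80% or more there were 32 ATAC-only and 2 M-ATAC-NC-only regions. Windows under 40% GC were also more frequent among ATAC-only regions, at 5.99% against 3.12% of M-ATAC-NC-only and 2.86% of shared regions. M-ATAC-NC-only regions gathered in the middle, with 26.3% at 50 to under 55% GC against 17.9% of ATAC-only regions. With lists of equal length the share of at least 75% GC was 13.1% of ATAC-only and 1.18% of M-ATAC-NC-only regions, and it was 7.45% and 1.08% among members with -log10 q of at least 5.

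**Figure D2:**
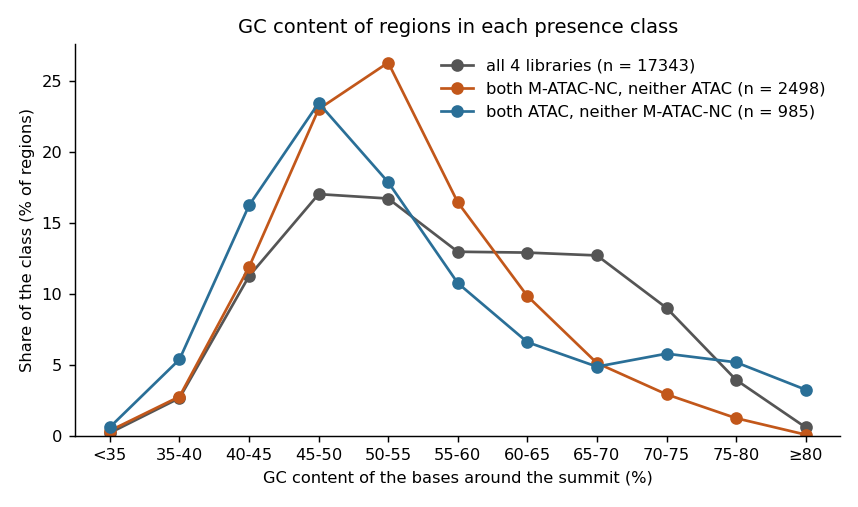
Share of each presence class (y axis, percent of its regions) by GC content of the 201 bp around the summit (x axis, percent, each interval including its lower limit). The ATAC-only class exceeds the M-ATAC-NC-only class under 50% GC and from 70% GC upwards, and the M-ATAC-NC-only class peaks at 50 to 55% GC with 26.3% of its regions.

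Within each library, regions of at least 75% GC were 3.02% and 2.89% of the M-ATAC-NC lists and 5.16% and 4.85% of the ATAC lists. The difference of -2.05 percentage points was larger than the SD of either kind, 0.0875 and 0.225 points, and the kinds did not overlap (p = 0.333 in an exact two-sided permutation test, which this design cannot go below). Libraries that the rule did not use are given beside these values. The 4 converted M-ATAC libraries, made with methylated adaptors, had 4.23%, 4.05%, 2.99% and 2.93%, all below both ATAC libraries. Replicates 1 and 2 of M-ATAC lay above both M-ATAC-NC libraries. M-ATAC differs from ATAC by conversion too and can share tagmented DNA with M-ATAC-NC, so it is not an independent comparison. Among libraries from CTCF immunoprecipitation, where the same transposases were applied to chromatin on beads, the unconverted CTCF-M-ChIP-NC libraries had 0.422% and 0.207% and the Nextera CTCF-ChIP libraries 0.497% and 0.588% (exact permutation test, p = 0.333). The CTCF-M-ChIP-NC lists were also shorter, with 22261 and 30470 regions against 40046 and 49633 in CTCF-ChIP. At the other end, regions under 40% GC were 3.61% and 3.21% of the M-ATAC-NC lists and 3.86% and 3.84% of the ATAC lists, and in the CTCF libraries the order was opposite, with 8.90% and 11.8% in CTCF-M-ChIP-NC against 8.01% and 8.69% in CTCF-ChIP.

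**Figure D3:**
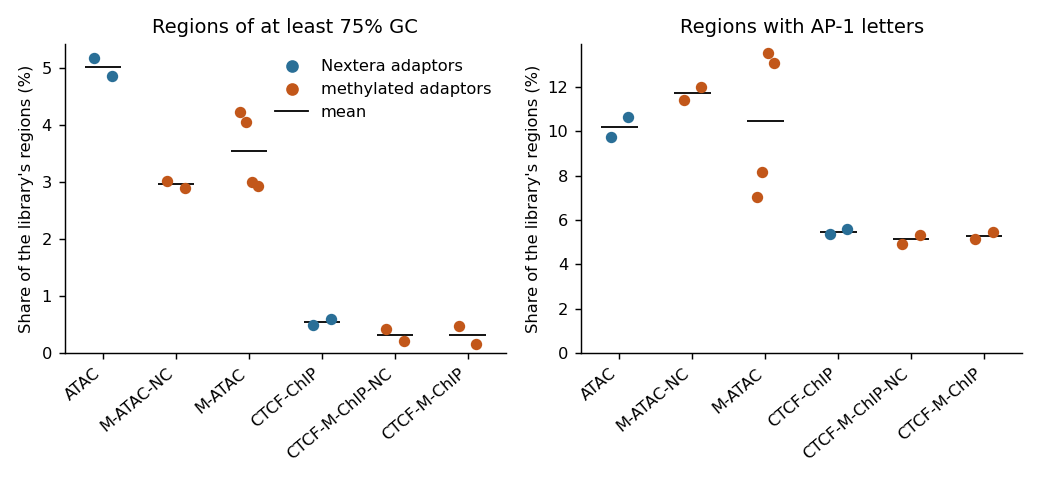
Share of each library's regions (y axis, percent) with at least 75% GC around the summit (left) and with the letters TGANTCA of the AP-1 motif (right). Points are libraries, lines are group means, and colours mark Nextera or methylated adaptors. On the left the ATAC libraries, at 5.16% and 4.85%, lie above all 6 M-ATAC and M-ATAC-NC libraries, and on the right the 4 M-ATAC libraries spread from 7.06% to 13.5%.

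Signal in the shared regions followed the same course across GC content. Log2 fold enrichment of each library was centred on its median over the 17343 shared regions. These medians averaged 0.31 higher in M-ATAC-NC than in ATAC, and differences are relative to that shift. In the 103 shared regions of at least 80% GC the median difference between M-ATAC-NC and ATAC was -0.42, with medians of -0.44 and -0.62 in the M-ATAC-NC libraries against -0.13 and -0.09 in the ATAC libraries. In the 496 shared regions under 40% GC the medians were -0.08 and -0.12 in M-ATAC-NC against 0.06 and 0.04 in ATAC. In the 7389 shared regions of 50 to under 65% GC they were 0.04 and 0.04 against -0.01 and -0.02. The kinds did not overlap in any of these 3 groups of regions, and each reached the exact permutation p of 0.333 that the design allows. The recovered summit pileup is solved from the fold enrichment and its p-value, so it is not an independent measure. It gave medians of -0.59 and -0.70 in M-ATAC-NC against 0.00 and -0.07 in ATAC in the regions of at least 80% GC. Without centring, the median difference in regions under 40% GC turned to 0.16 and that in regions of at least 80% GC stayed negative at -0.12.

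**Figure D4:**
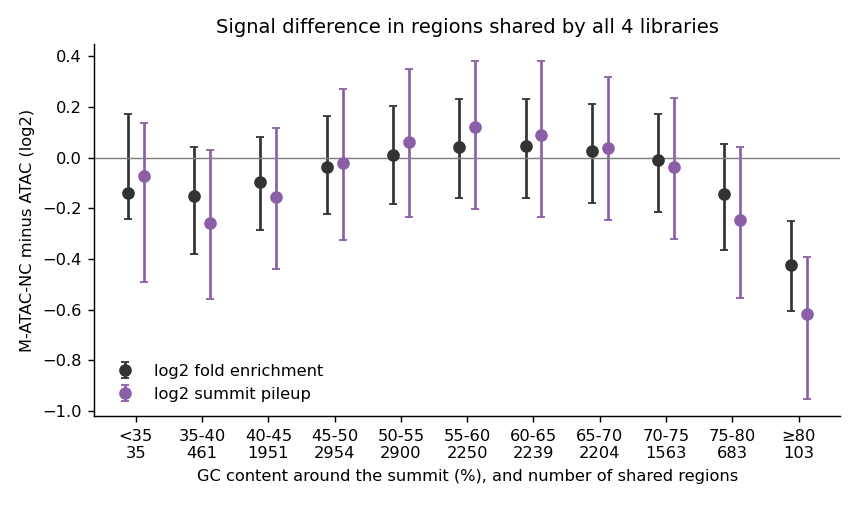
Difference between M-ATAC-NC and ATAC (y axis, log2, centred per library) by GC content around the summit, with the number of shared regions in each interval under the x axis. Points are medians over regions and bars run from the 25th to the 75th percentile of regions, for fold enrichment and for summit pileup. The points are below 0 under 50% and from 70% GC upwards, and lie lowest at 80% GC or more, at -0.42 for fold enrichment.

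Tested region by region with limma on centred log2 fold enrichment, 5 of the 17343 shared regions were higher in M-ATAC-NC (0.0288%) and 14 were lower (0.0807%) at an adjusted p under 0.05, with 1976 at an unadjusted p under 0.05. No region passed with limma after quantile normalization (lowest adjusted p = 0.067, with 1890 at an unadjusted p under 0.05). Without centring limma called 680 higher and 11 lower. When a sample was left out, between 1 and 4 of the 19 calls remained, and the region at Lars2 was among them each time. On recovered pileups limma called 489 higher (2.82%) and 415 lower (2.39%). Of the 415 lower in pileup 19.5% had at least 75% GC and 24.8% had under 45% GC, against 4.53% and 14.1% of all shared regions, and of the 489 higher 0.409% and 4.50% did. Of the 19 regions called on fold enrichment 17 were also called on pileups, which derive from it. The rest, at Lars2 and Gm13340, had no recovered pileup.

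Of the 14 lower regions, 6 were at gene starts, of which 5 had 77.1% to 82.6% GC and Gm13340 had 37.3%. The region at Adamts20, a secreted metalloprotease of the extracellular matrix, had a fold enrichment of 3.57 and 3.57 in M-ATAC-NC and 7.395 and 8.209 in ATAC. Its log2 difference was -1.43 ± 0.26 (SE; limma, adjusted p = 0.0093). The region at Cdc73, a subunit of the PAF1 transcription elongation complex, had 3.61 and 4.91 against 8.41 and 9.31 (-1.38 ± 0.26, limma adjusted p = 0.0136). Both M-ATAC-NC libraries lay below both ATAC libraries at each of these promoters. The others were at AL805899.1 (-1.36 ± 0.26), Gm13142 (-1.25 ± 0.26) and Tent5c, which encodes a poly(A) polymerase (-1.23 ± 0.26). A further 5 lower regions lay away from starts and had 35.8% to 44.3% GC. The one 8566 bp from Nasp-ps1 had 4.26 and 5.44 in M-ATAC-NC and 7.48 and 11.6 in ATAC (-1.26 ± 0.25). Its window is printed above and holds no CpG. The intergenic region 119183 bp from Gm26913 (-1.25 ± 0.26, 51.2% GC) and the region in an intron of Gm26862, nearest to the start of Gm9934 (-1.27 ± 0.26, 52.7% GC) had intermediate GC content.

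The remaining 2 lower regions held the highest fold enrichment of each library. The region in an exon of Lars2, the mitochondrial leucyl-tRNA synthetase, had fold enrichments of 36.9 and 38.5 in M-ATAC-NC and 43.1 and 44.5 in ATAC, and the pseudogene Gm13340 had 38.0 and 39.8 against 40.1 and 39.0. The Gm13340 region is uncertain, because 72.1% of its 25-base words occur in the mitochondrial genome, where reads cannot be told from those of the nuclear copy. Its M-ATAC-NC and ATAC values overlapped before centring, and its difference of -0.33 turned to 0.09 after quantile normalization. The Lars2 difference also depended on the scaling, and shrank from -0.52 to -0.09 after quantile normalization (limma adjusted p = 0.097).

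The 5 regions higher in M-ATAC-NC had between 50.2% and 60.2% GC. The promoter of Josd2, a deubiquitinase, had 13.4 and 12.9 in M-ATAC-NC against 3.57 and 6.30 in ATAC (1.16 ± 0.24, limma adjusted p = 0.0289). The promoter of Ppp1r12b, a regulatory subunit of myosin phosphatase, had 14.9 and 13.9 against 3.52 and 8.26 (1.11 ± 0.24, limma adjusted p = 0.0461). This difference was 0.55 without ATAC replicate 1 (limma adjusted p = 0.37) and 1.67 without ATAC replicate 2. In each the ATAC replicates differed from each other by more than the M-ATAC-NC replicates did. The other 3 lay 1954 bp from the start of C2cd2l (1.08 ± 0.24), 10452 bp from Smim23 (1.15 ± 0.25) and 10497 bp from Mnt, a repressor of the MYC network (1.15 ± 0.25). Slc25a25, a mitochondrial carrier gene, had 9.32 and 11.9 against 4.37 and 3.78 and did not pass the threshold (1.07 ± 0.25, limma adjusted p = 0.0722).

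**Figure D5:**
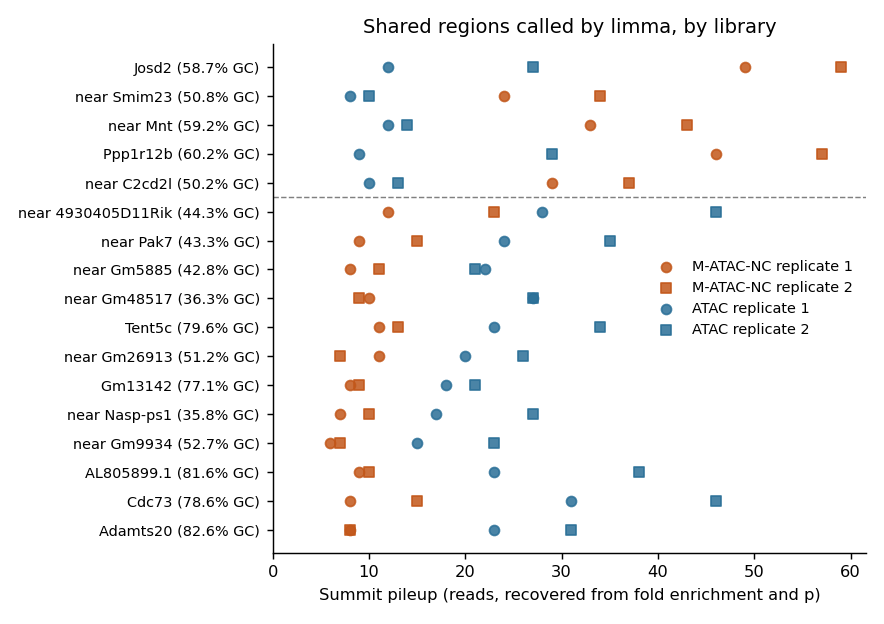
Summit pileup in reads (x axis) in each of the 4 libraries for the 17 shared regions called by limma whose pileup could be recovered, with the GC content of each window. Below the dashed line the 12 regions lower in M-ATAC-NC show orange symbols left of blue ones, from 6 to 23 reads against 15 to 46, and above it the 5 higher regions show the reverse.

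The strongest regions of the exclusive classes were picked by the lower of the 2 fold enrichments and are described without a test. In M-ATAC-NC the region printed above near Gm42424 had fold enrichments of 11.2 and 10.5, from 27 and 31 reads, and was not listed in ATAC, although all 4 converted M-ATAC libraries held it. The promoter of the zinc finger gene Gm14403 followed with 10.7 and 9.88, an intron of Sidt1 with 9.59 and 9.35 and the promoter of Dctn3, a dynactin subunit, with 9.44 and 9.32. Introns of A230001M10Rik, Jazf1 and Parp11 and an intergenic region 7309 bp from Slc15a2 made up the 8, between 9.06 and 11.4. All 8 recurred in at least 2 of the 4 M-ATAC libraries. Among M-ATAC-NC-only promoters, Slc25a5, which encodes the mitochondrial ADP/ATP carrier, had 9.94 and 7.56, Dnph1 had 7.48 and 9.37, Adgrg1 7.41 and 8.32, and Hormad2, a meiotic chromosome axis gene, 7.01 and 8.60.

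In ATAC the strongest region that M-ATAC-NC did not list lay 7687 bp from the embryonic globin gene Hbb-y, with fold enrichments of 11.6 and 9.79 from 28 and 26 reads. The promoter of Zfand6 had 9.64 and 9.69, and that of Esrrg, an orphan nuclear receptor related to Esrrb, had 9.34 and 8.68. Intergenic regions nearest to Mir195b, Tusc1 and Gm25006 and introns of Gpc6 and Macrod2 completed the 8, between 8.03 and 10.3. Of these 8, the Macrod2 intron was in 1 of the 4 M-ATAC libraries and the rest were in 2 to 4. Further ATAC-only promoters were Ubqln2, a proteasome shuttle factor, with 7.64 and 8.65 at 73.6% GC, Gclm, the modifier subunit of glutathione synthesis, with 7.15 and 6.72 at 75.1% GC, Nudt12 with 7.89 and 7.46, and Pde4d with 7.08 and 7.82. Gclm was listed in all 4 M-ATAC libraries and all 6 CTCF libraries, whereas Nudt12 was in none of these 10.

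By annotation, 58.5% of shared regions lay within 3 kb of a transcription start, against 38.6% of M-ATAC-NC-only and 37.1% of ATAC-only regions. Within 1 kb of a start the shares were 53.0%, 27.6% and 32.1%, so the order of the exclusive classes depended on the distance. Genic regions beyond 3 kb were 32.7% of M-ATAC-NC-only and 25.9% of ATAC-only regions, and intergenic regions were 28.7% and 37.1%. Within promoters, 21.9% of ATAC-only regions had at least 75% GC, against 3.21% of M-ATAC-NC-only and 7.56% of shared promoter regions. The ratio of observed to expected CpG had medians of 0.303 in ATAC-only, 0.234 in M-ATAC-NC-only and 0.452 in shared regions.

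Short motif letters were counted on both strands of the 201 bp windows. Letters of the AP-1 motif (TGANTCA), bound by the Fos and Jun factors that are abundant in fibroblasts, were in 16.7% of M-ATAC-NC-only, 11.1% of ATAC-only and 9.85% of shared regions, against 12.2% of all merged regions. Those of the Klf motif (GGGNGTGG) were in 18.9%, 12.1% and 17.0%, against 16.1%. The GC box (GGGCGG), which Sp and Klf factors also bind and which was added to the list of motifs later, had the opposite order in the exclusive classes, at 18.9% of M-ATAC-NC-only, 23.3% of ATAC-only and 37.2% of shared regions, against 26.3% of all merged regions. The octamer of Pou5f1 (ATGCAAAT) was in 3.002%, 4.26% and 3.42%, Esrrb letters (AAGGTCA) in 5.96%, 5.58% and 5.39%, CTCF core letters (CCACNAGG) in 5.04%, 4.87% and 4.53% and NRF1 letters (GCATGCGC) in 0.961%, 0.914% and 2.11%. The Klf and AP-1 differences were present away from promoters too, at 19.4% against 10.5% and 19.7% against 14.5% of M-ATAC-NC-only and ATAC-only regions. There, shared regions had Klf letters in 14.7% and AP-1 letters in 16.6%, and all merged regions in 15.0% and 16.5%. For AP-1, shared regions were thus closer to the M-ATAC-NC-only class away from promoters than over all regions.

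Over whole libraries AP-1 letters were in 11.4% and 12.01% of M-ATAC-NC regions and 9.73% and 10.6% of ATAC regions, with no overlap (exact permutation test, p = 0.333). The 4 M-ATAC libraries, at 7.06%, 8.16%, 13.5% and 13.1%, spread more widely than the M-ATAC-NC and ATAC libraries were apart. Feeder fibroblasts are the other cell type of the culture. Regions within 3 kb of a start were listed for 7 and 6 of 18 feeder fibroblast genes in M-ATAC-NC and for 2 and 5 in ATAC. Of all protein-coding genes 54.1% and 57.9% had such a region in M-ATAC-NC, 49.9% and 55.7% in ATAC, and 36.4% in no library. Twist1 and Fbn1 were the fibroblast genes in all 4 libraries. Twist1 had fold enrichments of 4.25 and 3.81 in M-ATAC-NC and 5.09 and 4.92 in ATAC (-0.62 ± 0.25, limma adjusted p = 0.315), and Fbn1 had 5.16 and 5.58 against 5.62 and 4.18 (-0.10 ± 0.26, limma adjusted p = 0.926). Col1a1 was the fibroblast gene of the M-ATAC-NC-only pattern, with 4.64 and 4.93, while Col1a2, Lum and S100a4 lacked a region in ATAC replicate 1 alone and Thy1 was listed in M-ATAC-NC replicate 1 alone, at 5.73. Of the 18 genes 11 were listed in no library, namely Col3a1, Col6a3, Dcn, Postn, Prrx1, Twist2, Acta2, Loxl1, Tagln, Pdgfrb and Fap. The part of feeder cells in the AP-1 difference was not tested.

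Libraries outside the rule recovered the exclusive classes to different degrees. Converted M-ATAC libraries 1 to 4 held 33.1%, 42.3%, 45.4% and 45.8% of M-ATAC-NC-only regions and 32.5%, 31.9%, 37.4% and 31.8% of ATAC-only regions, against 82.5% to 90.2% of shared regions. The difference averaged 8.30 ± 5.66 percentage points (SD, n = 4) and was positive in 4 of 4 libraries (exact sign-flip test, two-sided, p = 0.125, the smallest that 4 libraries allow). Its size depended on how the classes were made, with 2.20 points at 50% reciprocal overlap (exact sign-flip p = 0.25) and 19.1 points with classes from lists of equal length (exact sign-flip p = 0.125). M-ATAC shares its transposome, and possibly its tagmented DNA, with M-ATAC-NC. The 4 M-ATAC libraries were also not uniform, since replicates 1 and 2 differed from replicates 3 and 4 in AP-1 letters. No M-ATAC library held 25.3% of M-ATAC-NC-only and 35.9% of ATAC-only regions, against 1.95% of shared regions. Of the 83 ATAC-only regions of at least 75% GC, 62 were in at least 1 M-ATAC library, and of the 33 M-ATAC-NC-only regions of at least 75% GC, 24 were.

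The CTCF libraries ranked the classes the other way. CTCF, the insulator protein, was immunoprecipitated in 6 libraries, and all 6 held a larger share of ATAC-only than of M-ATAC-NC-only regions, whichever transposase they were made with. The shares were 19.2% against 12.6% and 21.4% against 14.6% in the Nextera CTCF-ChIP libraries, and 12.2% against 8.49% and 14.3% against 10.2% in CTCF-M-ChIP-NC. In the converted CTCF-M-ChIP libraries they were 16.2% against 10.8% and 14.2% against 8.57%. The difference averaged -6.71 points in CTCF-ChIP and -3.92 points in CTCF-M-ChIP-NC, without overlap (exact permutation test, p = 0.333). The CTCF-ChIP lists were longer, with 40046 and 49633 regions against 22261 and 30470. They also held more of the shared regions, 12.5% and 15.9% against 7.82% and 9.30%. The part of list length in the difference was not tested. Away from promoters 22.3% of ATAC-only regions were in at least 1 CTCF library, against 12.9% of M-ATAC-NC-only and 10.6% of shared regions. Over all regions of each class these shares were 21.9%, 15.0% and 16.4%. CTCF core letters, counted over all regions only, were in 4.87%, 5.04% and 4.53%.

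Genes were then compared by their strongest region within 3 kb of a start, in each library. Of 21866 protein-coding genes 43.6% had a region within 3 kb of a start in all 4 libraries, 1.99% in both M-ATAC-NC libraries and neither ATAC library, and 0.759% in both ATAC libraries and neither M-ATAC-NC library. Of 20 core pluripotency genes, which maintain the embryonic stem cell state, 13 were in all 4 libraries, none was M-ATAC-NC-only and Fgf4 was ATAC-only. The 13 were Pou5f1, Sox2, Klf4, Klf2, Klf5, Esrrb, Tfcp2l1, Tbx3, Zfp42, Lin28a, Nr5a2, Utf1 and Tdgf1. No shared region near these genes passed the limma test, and the median difference over their 14 shared regions was 0.06, against -0.02 over all shared regions.

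The other 7 lacked a region in at least 1 library. Fgf4, a growth factor of the early embryo, had fold enrichments of 3.31 and 3.91 in ATAC. Nanog was listed in ATAC replicate 1 alone, at 3.72, and Sall4 in M-ATAC-NC replicate 1 alone, at 4.26. Prdm14 was in replicate 2 of each kind, at 4.67 in M-ATAC-NC and 3.59 in ATAC. Dppa4 and Dppa5a lacked a region in M-ATAC-NC replicate 1 alone, and had 4.66 and 3.38 in M-ATAC-NC replicate 2. Tcl1 lacked one in ATAC replicate 1 alone, with 7.28 and 8.20 in M-ATAC-NC and 5.14 in ATAC replicate 2. Among the lineage transcription factors, the endoderm factor Sox17 was in all 4 libraries, between 3.79 and 5.88, and Gata4, Gata6 and Foxa2 were in 1 library each.

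Among the other lists, regions in all 4 libraries were found for 12 of 15 genes of the DNA methylation machinery, 12 of 20 cytoplasmic ribosomal protein genes and 8 of 10 genes of chromatin insulators and cohesin. They were found for 5 of 20 lineage transcription factors and 4 of 15 germline genes with methylated promoters. No shared region of any list passed the limma test in either direction. The maintenance methyltransferase gene Dnmt1 had 7.21 and 7.53 in M-ATAC-NC and 5.22 and 5.69 in ATAC, whereas the de novo methyltransferase genes Dnmt3a and Dnmt3b lacked a region in ATAC replicate 1. Dnmt3l, their cofactor, had 4.81 and 6.59 against 3.44 and 5.81. The insulator gene Ctcf had 5.18 and 4.72 in M-ATAC-NC and 6.23 and 5.61 in ATAC, while the cohesin gene Smc1a had 9.86 and 11.2 against 6.71 and 7.26 (limma adjusted p = 0.402 and 0.65). The cohesin subunits Rad21, with 10.2 and 9.84 against 9.40 and 8.26, and Smc3, with 8.47 and 6.44 against 5.40 and 8.18, did not pass either. Of the ribosomal genes Rpl5 had 6.69 and 8.84 against 3.6 and 6.42, Rpl3 and Rpl7a overlapped between the kinds, and Rpl4 lacked a region in ATAC replicate 1.

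Exclusive promoters in these lists were Olig2 and Sox1, neural factors, in M-ATAC-NC, and T, the mesoderm factor brachyury, in ATAC. Olig2 had 8.94 and 5.30, Sox1 had 3.36 and 5.18, and T had 3.50 and 3.80. Together they are 2 of 20 and 1 of 20 lineage factors, beside 1.99% and 0.759% of all protein-coding genes. Of the germline genes Dazl had 5.20 and 6.64 in M-ATAC-NC and 9.43 and 7.31 in ATAC (-0.81 ± 0.25, limma adjusted p = 0.195), and Mael had 5.85 and 6.85 against 3.81 and 6.55. Ddx4 was in replicate 2 of each kind and Sycp3 in M-ATAC-NC replicate 2 alone, at 6.79.

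DNA methylation (DNAme) in the exclusive classes was read from the converted M-ATAC libraries, in the authors' table that merges replicates and has no replicate spread. At cytosines with at least 5 reads, 0.875% of reads were methylated in shared regions (95% Wilson interval 0.869% to 0.880%), 4.32% in M-ATAC-NC-only regions (4.23% to 4.41%) and 3.29% in ATAC-only regions (3.18% to 3.40%). The intervals cover counting error only. Regions with over 20% methylation were 8.04% of 16602 shared, 19.4% of 2001 M-ATAC-NC-only and 22.1% of 673 ATAC-only regions that had such a cytosine. Expression of genes with a promoter region was highest for those in all 4 libraries, with a median of 17.2 TPM, a read count scaled by transcript length and library size, and quartiles of 4.73 and 47.0. It was 3.965 TPM (0.52 to 20.05) for M-ATAC-NC-only and 2.00 TPM (0.110 to 16.2) for ATAC-only genes, and within 1 kb of the start the latter was 4.22 TPM. Genes with no region in any library had a median of 0.

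The genes Klf4, Pisd-ps1 and Slc5a8, which the study uses as examples, had no region that passed the test. The Klf4 promoter region, at chr4:55532242-55533285, had fold enrichments of 3.75 and 4.49 in M-ATAC-NC and 4.16 and 4.53 in ATAC (-0.39 ± 0.24, limma adjusted p = 0.557). The shared region near Pisd-ps1 had 4.40 and 5.25 against 3.15 and 2.92 (0.36 ± 0.23, adjusted p = 0.577), and 2 further regions there were listed in ATAC replicate 1 alone. At Slc5a8, a monocarboxylate transporter gene, the 2 shared regions had 8.61 and 10.6 against 6.70 and 8.66, and 11.1 and 11.2 against 10.1 and 11.7. Its promoter region was in replicate 2 of each kind alone, at 4.45 in M-ATAC-NC and 4.08 in ATAC.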

How the data were processed

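Open regions were compared between M-ATAC-NC and ATAC, 2 samples each. The authors trimmed reads (Trim Galore 0.4.4), aligned ATAC to mm10 with bowtie2 and M-ATAC with Bismark 0.18.1, removed duplicates and reads of low quality (SAMtools 1.3), and called peaks per sample with MACS2 at q of 0.01. For M-ATAC-NC the aligner and the amplification mix are not given in the sources used here. The deposited peak lists give a score, a fold enrichment (ratio), a -log10 p and a -log10 q per summit. The deposited M-ATAC methylation table gives counts of methylated and unmethylated reads and the percent methylated for merged replicates, and the deposited expression table gives TPM for merged replicates. 

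Summits were reduced to distinct regions, with the highest fold enrichment kept, and regions sharing 1 bp were merged. Genes were those of GENCODE M21 and sequence was GRCm38. Summit pileup and background were solved from fold enrichment and p. Library values were set against each other in two-sided exact tests that permute the samples. Shared regions were compared by limma 3.58.1 (R 4.3.3) with Benjamini-Hochberg adjustment. On simulated data for 17343 regions, limma recovered 84% of 2-fold changes and 100% of 4-fold changes with 9 false calls. The simulated noise was normal and independent, with the fitted SDs, so these rates hold for that setting only. In the text a region was named where it was among the 8 strongest, or the 6 strongest within 1 kb of a coding start, of an exclusive class, among the 8 largest limma differences in each direction, one of the first 4 genes of a list (for pluripotency and fibroblast genes, those not in all 4 libraries), or an example of the study. Of the regions this rule names, 2 are not reported here. Olig2, Sox1 and T were named after their values were seen. The gene lists, the members and these rules were chosen with earlier results of these data known. Of 21866 protein-coding genes 21546 matched the expression table by identifier. Python 3.11.15, pandas 2.3.3 and scipy 1.17.1 were used. The alternatives tried were other overlaps, thresholds, list lengths, scalings and windows, a block for replicate number and leaving out each sample. All 3 alternatives on strong members and on class features under lists of equal length were added after seeing the data.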

Additional observations from a re-analysis of the deposited data

Results flagged for a closer look

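M-ATAC replicate 3 held 37.4% of the ATAC-only regions and stood apart from the other 3 M-ATAC libraries, which held between 31.8% and 32.5%. It was the 1 value far from the others among 11 measures examined over these 4 libraries, and chance gives about 1 in 20 such groups. The rule looks for a single far value and cannot pick up a split into pairs. Replicates 1 and 2 differed from replicates 3 and 4 in AP-1 letters (7.06% and 8.16% against 13.5% and 13.1%). Their promoter shares were 50.8% and 50.7% against 47.2% and 48.1%. The number of regions did not split so, with 26304 and 29323 against 29331 and 28026. The split was not tested.

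For 6 of 13 library measures the difference between methylated and Nextera adaptors ran in opposite directions in the ATAC and the CTCF libraries, with no overlap between the kinds in either. The difference between the effects was not tested, and the CTCF libraries also differ by antibody and chromatin preparation, and possibly by depth. Base pairs covered differed by 3204120 between M-ATAC-NC and ATAC and by -7490354.5 between CTCF-M-ChIP-NC and CTCF-ChIP. Median region width differed by 55 bp against -81.5 bp. Median fold enrichment differed by 0.823 against -3.25. The median ratio of observed to expected CpG differed by -0.0421 against 0.0139. Regions under 40% GC differed by -0.437 percentage points against 1.98 points. Regions with AP-1 letters differed by 1.54 percentage points against -0.353 points.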

How the results depend on the processing

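Of 137 alternatives to the values that answer a comparison, 90 kept the direction and the side of the test's threshold or, with no test, stayed within the spread between replicates or within 1.5 times the count, while 46 moved and 1 reversed. The cause was not tested. Among the 90 some sizes changed: the difference in regions per library was 480 without ATAC replicate 1, that in covered bp 1556179.5 and that in promoter share -0.292 points, and the AP-1 difference was 3.30 points over whole regions. M-ATAC-NC-only regions came to 1521 with lists of equal length, 834 with members strong in both libraries, and between 3400 and 7583 when a sample was left out. ATAC-only regions came to 1850 with 50% reciprocal overlap, 539 at -log10 q of at least 5, 282 with members strong in both libraries, and 1647 to 4937 when a sample was left out, since fewer lists then have to hold or lack a region. Shared regions called higher and lower by limma numbered 0 and 0 after quantile normalization, 45 and 51 on -log10 q, 489 and 415 on pileups, and 0 to 3 and 1 to 4 when a sample was left out. Without centring 680 were higher and 11 lower, and with a mean fold of at least 5 there were 1 and 14. With the replicate block 25 were higher and 64 lower, and the 19 called without it were among them. The sources do not say whether the replicate numbers pair the samples. Deviations of same-numbered libraries from their group means had a correlation of -6.75e-04 over 17343 shared regions. With 2 libraries per kind this value cannot decide the pairing.

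The median difference at 80% GC or more was -0.12 without centring, -0.95 on -log10 q and -0.62 on pileups. Under 40% GC it was 0.16 without centring, -0.32 on -log10 q, -0.25 on pileups and -0.13 to -0.18 when a sample was left out. Methylation was 0.698%, 3.06% and 2.43% at cytosines with at least 10 reads, and 0.959%, 4.86% and 3.66% at all cytosines, in shared, M-ATAC-NC-only and ATAC-only regions. With promoters of 1 kb the median TPM was 18.2, 5.45 and 4.22. Gm13340 turned to 0.0945 after quantile normalization and to 0.11 on -log10 q. For 22 single regions, 132 of 240 alternatives kept the call, 94 lost it, 12 gained it and 2 reversed. Members strong in both libraries were an alternative chosen after seeing the data. With 2 samples per kind the exact permutation test cannot pass a threshold of 0.05, and read totals were not used here, so depth was judged from the recovered background.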
